A study of Mus musculus with 2 samples.

Results

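The genes described here are 10 that encode enzymes acting on collagen: the 5 lysyl oxidases Lox, Loxl1, Loxl2, Loxl3 and Loxl4, the 3 lysyl hydroxylases Plod1, Plod2 and Plod3, and 2 catalytic subunits of prolyl 4-hydroxylase, P4ha1 and P4ha2. They were chosen by symbol, and all 10 were found, each on 1 row of the 55487 in the count table. RNA came from MC3T3-E1, a line of osteoblast-like cells established from the skull cap of mice, kept in medium with 10% serum and seeded 24 h before treatment. In 1 library the cells were untreated, with no vehicle named, and in the other they received 10 nM parathyroid hormone (PTH), a peptide that acts on osteoblasts through a receptor coupled to cyclic AMP. Both libraries are labelled 1 h. The libraries held 66302211 (untreated) and 70036872 (PTH) counts, and 16408 rows had a total of 20 or more and were compared.

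Collagen chains are modified in the endoplasmic reticulum before they fold. Prolyl 4-hydroxylase makes the hydroxyproline that stabilises the triple helix, and lysyl hydroxylases make hydroxylysine, which carries sugars and sets the chemistry of crosslinks. Both use iron, oxygen, 2-oxoglutarate and ascorbate. Outside the cell, the copper-dependent lysyl oxidases turn lysine and hydroxylysine into the aldehydes from which crosslinks of collagen and elastin form, a step on which the strength of bone matrix depends.

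None of the 10 genes was past the size rule after 1 h of PTH. A gene was past it when the whole 95% counting interval of its ratio, PTH over untreated in scaled counts, lay beyond 1.5-fold. Over all rows compared, 5.39% were past the rule with more counts in the PTH library and 3.54% with fewer. A count of 0 in 10 is close to those shares, so it is not a result particular to these genes. Plod2 had the highest ratio of the 10 at 1.27 (interval 1.23 to 1.31), followed by Plod3 at 1.16 (1.13 to 1.19) and Loxl4 at 1.14 (1.09 to 1.19). Lox had the lowest, at 0.907 (0.899 to 0.914). There was 1 library per condition, so no difference could be checked against replicates and none has a p-value. Intervals cover counting error only and compare these libraries, not the conditions. In bulk RNA, fewer cells of a type and less RNA per cell cannot be told apart.

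**Figure D1:**
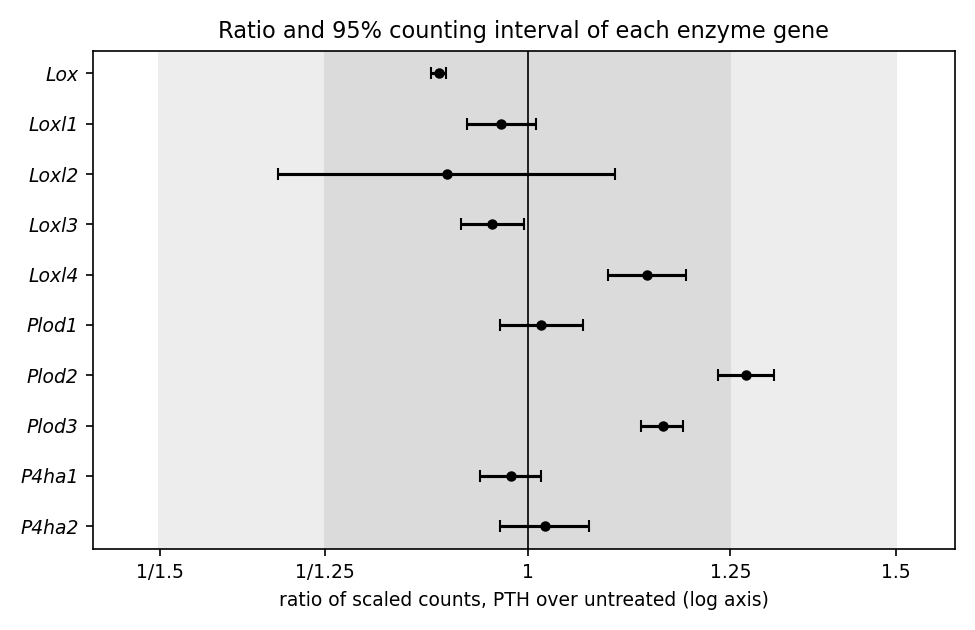
Ratio of scaled counts, PTH over untreated, for each of the 10 genes on a log axis, with bars for the 95% counting interval. The outer grey band marks 1.5-fold and the inner one a smaller limit, log2 0.32. All 10 intervals lie inside the outer band, and those of Plod2 and Loxl2 cross an edge of the inner one.

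The labelled cell type and the treatment were checked with marker genes. All 8 osteoblast markers had enough counts to compare, among them Col1a1, the main collagen gene of bone, with ratio 1.05, and Spp1, which encodes osteopontin, with ratio 0.952. The marker past the rule was Sp7, the osterix gene, at 0.418. Of 12 markers of other cell types 11 had totals under 20, and the other was Csf1r, with 122 untreated and 155 PTH counts. The osteoblast marker Bglap, picked after its values were seen, had fewer, at 57 and 87 counts. It was the only osteoblast marker with fewer counts than Csf1r. The cartilage markers among the 12 were Acan and Col10a1, at 0 in both libraries. Col2a1, a cartilage collagen gene outside the 12 and picked after its values were seen, had 27597 untreated and 38400 PTH counts. Low totals among the 12 thus do not show that cartilage genes were absent. Of 4 genes known to respond to cyclic AMP all 4 had more counts past the rule: Rgs2 (ratio 50.01), Nr4a2 (13.6), Crem (12.2) and Pde4d (3.92). Over all rows compared 5.39% were past it in that direction. The 4 were chosen with earlier results of these data known, so they are not an independent check.

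The 5 lysyl oxidases share a catalytic end in which histidines bind copper. The coding bases of that stretch, taken from GENCODE M21 transcripts, are shown for the Loxl genes because this site defines the family, with the 4 histidine codons in capitals.
Loxl1: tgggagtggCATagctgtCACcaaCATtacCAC
Loxl2: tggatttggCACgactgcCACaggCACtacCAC
Loxl3: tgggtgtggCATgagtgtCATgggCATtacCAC
Loxl4: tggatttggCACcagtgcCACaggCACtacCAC
They are codons 476 to 486 of the longest reading frame of Loxl1, 622 to 632 of Loxl2, 602 to 612 of Loxl3 and 607 to 617 of Loxl4. Loxl2 and Loxl4 have 31 of the 33 bases in common, and Loxl1 and Loxl4 have 21. No stretch of 50 bases in the transcripts of any of the 10 genes occurred in another of the 10, which bears on whether reads of that length could be counted for the wrong member.

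Lox encodes the founding enzyme of the family, which crosslinks fibrillar collagen and elastin (ENSMUSG00000024529, chr18:52516067-52529867 in GRCm38, minus strand). It had 114576 counts untreated and 106997 after PTH, the highest of the 10 genes in each library and rank 42 of the 16408 rows by total counts. The PTH value was the lower one, with a difference of log2 -0.14. Among the 9549 rows with at least 1000 counts, 23.1% had a lower ratio than Lox. The narrow interval reflects the depth of Lox, and a gap of this size lay well inside the spread of other well-counted rows.

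Loxl1 is an oxidase linked to elastic fibres (ENSMUSG00000032334, chr9:58287738-58313186, minus strand). Its counts were 5341 untreated and 5344 after PTH, a ratio of 0.972 (0.935 to 1.01). The interval included 1, but lay below it with total-count scaling (0.912 to 0.984) and upper-quartile factors (0.918 to 0.991). Loxl3 (ENSMUSG00000000693, chr6:83034173-83052562, plus strand), which acts in cartilage and palate development, had 6483 and 6421 counts, a ratio of 0.962 (0.929 to 0.996). Exons of Htra2 on the other strand cover 11.6% of Loxl3. Htra2 had 4089 and 4364 counts, and the strand setting of the counting was not given in the sources used here, so the Loxl3 counts are uncertain to that extent.

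Loxl4 (ENSMUSG00000025185, chr19:42593982-42612813, minus strand) carries scavenger receptor repeats before its catalytic end, as do Loxl2 and Loxl3. It had 3919 counts untreated and 4603 after PTH, and was the only one of the 5 lysyl oxidases with a scaled-count ratio above 1, under each of the scalings tried. Set against each of the other 4 lysyl oxidases, the change in Loxl4 was larger beyond counting error, from 1.17 times that of Loxl1 (1.11 to 1.24) to 1.26 times that of Lox (1.20 to 1.31). These ratios of ratios do not depend on the scaling. With an assumed coefficient of variation of 0.1 per library, none of the 4 intervals excluded 1.

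Loxl2 encodes an oxidase with activity on basement membrane collagen (ENSMUSG00000034205, chr14:69609068-69695834, plus strand). It had the lowest counts of the 10, 242 untreated and 228 after PTH, a ratio of 0.915 (0.760 to 1.10). Its counts are the least certain of the 10. Of the 50-base stretches in its transcripts, 42.9% also occur in Gm21451, an unprocessed pseudogene at chr14:69390854-69480287. Gm21451 had 19 and 20 counts. The handling of reads that match both places was not given in the sources used here, so the Loxl2 counts and level are uncertain. With the Gm21451 counts added, a choice made after the data were seen, the ratio was 0.923 (0.772 to 1.10). A further 5.57% of Loxl2 exonic length lies opposite exons of the antisense gene Gm27177, which had 82 and 55 counts.

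Levels were compared between genes as CPM, counts scaled by effective library size, per kb of annotated exon. Lox stood at 357 untreated and 324 after PTH, far above the rest, and made up 85.7% and 84.4% of the summed level of the 5 lysyl oxidases. Loxl1 took 5.79% and 6.11%, Loxl3 5.03% and 5.26%, and Loxl4 3.32% and 4.12%. Loxl2 took 0.160% and 0.159%. The order within this family was thus the same in both libraries. With the longest transcript as length, Loxl1 and Loxl3 stood at 24.1 and 23.6 CPM per kb untreated, a near tie.

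**Figure D2:**
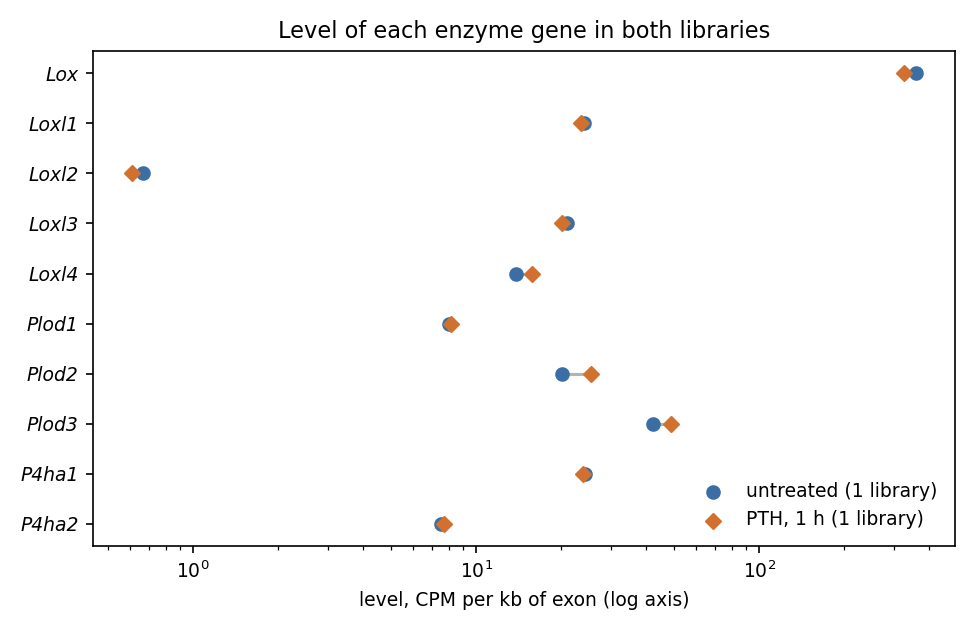
Level of each of the 10 genes in CPM per kb of exon on a log axis, with separate points for the libraries. Lox is highest at 357 and 324, Loxl2 lowest at 0.667 and 0.610, and the widest gap on this axis between the libraries is that of Plod2, at 20.1 and 25.5.

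The lysyl hydroxylases differed from each other in their values. Plod2 encodes the enzyme that hydroxylates the telopeptide lysines of collagen, from which the stable crosslinks of bone form (ENSMUSG00000032374, chr9:92542223-92608428, plus strand). It had 7256 counts untreated and 9498 after PTH, log2 0.35, and 7.78% of rows with at least 1000 counts had a higher ratio. Its interval reached below the smaller limit, log2 0.32, so Plod2 was not past that either. At the smaller limit, 9.11% of all rows were past with more counts and 7.39% with fewer, against 0 and 0 of the 10 genes. With a coefficient of variation of 0.1 per library assumed, the Plod2 interval was 0.962 to 1.68 and included 1. Plod2 is known to be spliced in alternative forms, which counts per gene do not separate, and 6.42% of its exonic length lies opposite Gm38391 (89 and 133 counts).

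Plod3 encodes an enzyme that also transfers glucose to hydroxylysine that already carries galactose (ENSMUSG00000004846, chr5:136987019-136996648, plus strand). Its counts were 12810 untreated and 15298 after PTH, log2 0.21, and 14.4% of rows with at least 1000 counts had a higher ratio. Exons of Znhit1 on the other strand cover 11.7% of it, and Znhit1 had 1854 and 1966 counts. Plod1 hydroxylates lysines of the helix (ENSMUSG00000019055, chr4:147909753-147936767, minus strand) and had 3648 and 3814 counts, a ratio of 1.02 (0.970 to 1.06). The Plod1 interval included 1, and its ratio was below 1 with total-count or upper-quartile scaling.

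Within the family the change in Plod2 was 1.252 times that of Plod1 (1.19 to 1.32) and 1.10 times that of Plod3 (1.06 to 1.14). Plod3 was 1.14 times Plod1 (1.09 to 1.20). All 3 comparisons exceeded counting error, and none did with a coefficient of variation of 0.1 assumed. Summed over the 3 genes, counts were 23714 untreated and 28610 after PTH, a ratio of 1.17 (1.15 to 1.19). The corresponding ratio was 0.919 (0.912 to 0.926) for the 5 lysyl oxidases, of whose counts Lox makes up most, and 0.993 (0.966 to 1.02) for P4ha1 with P4ha2. In level per length Plod3 made up 60.1% and 59.3% of the family, Plod2 28.5% and 30.9%, and Plod1 11.4% and 9.87%.

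**Figure D3:**
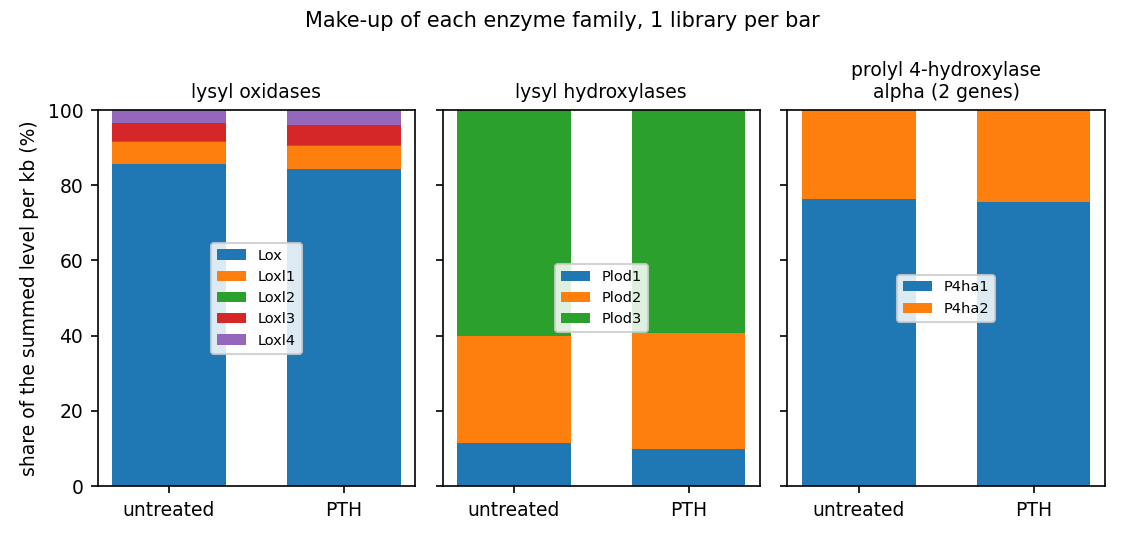
Share of each gene in the summed level per kb of its family, in percent, with a bar per library. Lox takes 85.7% and 84.4% of the lysyl oxidases, Plod3 60.1% and 59.3% of the lysyl hydroxylases, and P4ha1 76.3% and 75.7% of the P4ha1 and P4ha2 sum. Loxl2, at 0.160% and 0.159%, is too thin to see.

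P4ha1 and P4ha2 encode alternative catalytic alpha subunits of prolyl 4-hydroxylase, which work in a tetramer with the beta subunit P4hb. P4ha1 (ENSMUSG00000019916, chr10:59323296-59373304, plus strand) had 6713 counts untreated and 6785 after PTH, a ratio of 0.982 (0.949 to 1.02). P4ha2 (ENSMUSG00000018906, chr11:54100095-54131665, plus strand) had 3156 and 3311 counts, a ratio of 1.02 (0.970 to 1.07), which was below 1 with total-count scaling. The P4ha1 interval lay below 1 with total-count scaling (0.925 to 0.990) and upper-quartile factors (0.932 to 0.997). The changes of the pair were not distinguishable from each other, P4ha2 against P4ha1 being 1.04 (0.978 to 1.10).

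P4ha1 stood at 24.3 and 23.9 CPM per kb and P4ha2 at 7.54 and 7.68. The P4ha2 share of the pair, 23.7% untreated, was 38.3% when the longest transcript was used as length, because its 15 annotated transcripts together span 6239 bases of exon and the longest 3060. The third alpha subunit gene, P4ha3, which was looked at after its values were seen, had 10091 and 11812 counts (ratio 1.14, 1.11 to 1.17). It stood at 48.0 and 54.5 CPM per kb, so that of the 3 alpha subunit genes P4ha3 had 60.1% of the summed level untreated and 63.4% after PTH. With the longest transcript as length the P4ha3 share was 60.9% and 64.0%.

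Across all 10 genes the order of levels per length held Lox first, Plod3 second and Loxl2 last in each library. P4ha1, Loxl1, Loxl3 and Plod2 lay close together, between 20.1 and 24.3 untreated. In that group Plod2 ranked 6 of 10 untreated and 3 after PTH, and with the longest transcript as length it ranked 3 in both libraries. Plod1 and P4ha2, at 8.03 and 7.54 untreated, also changed places with the choice of length. With 1 library per condition these close neighbours cannot be ordered beyond a spread between cultures.

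Of the 10 ratios 5 were above 1 and 5 below, and with total-count scaling 3 were above. Their median log2 ratio was -0.003, against 0.002 for all rows compared. Counting intervals lay wholly above 1 for 3 genes (Plod2, Plod3 and Loxl4) and wholly below it for 2 (Lox and Loxl3), or for 4 with total-count or upper-quartile scaling, which added Loxl1 and P4ha1. Of the 16408 rows compared, 4829 had intervals wholly above 1 and 4790 wholly below. Of the 9549 rows with at least 1000 counts, 3225 lay wholly above and 3245 wholly below. The counts for the 10 genes do not stand out from these. All 10 counting intervals lay inside 1.5-fold, as did those of 91.6% of rows with at least 1000 counts and 61.5% of all rows compared. Loxl2, with 470 counts in total, was the only member under 1000. Inside the smaller limit lay 8, against 73.3% of rows with at least 1000 counts and 44.4% of all rows compared. Of the 10 genes, 6 had a log2 ratio within the middle 50% of those well-counted rows, which ran from -0.13 to 0.12. With an assumed coefficient of variation of 0.1 per library, the intervals of Plod2, Plod3 and Loxl4 reached 1.68, 1.53 and 1.51. That of Loxl2 reached down to 0.657. With 0.2 assumed, the upper end of all 10 was above 1.5, so changes beyond 1.5-fold between the conditions are not excluded.

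**Figure D4:**
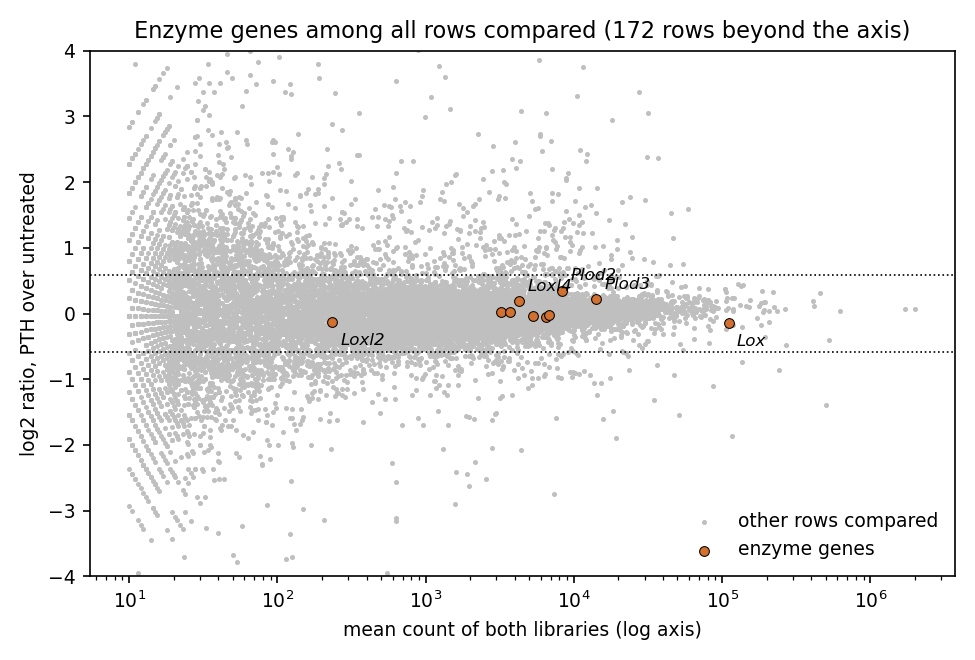
Log2 ratio, PTH over untreated, against the mean count of both libraries on a log axis for the 16408 rows compared, with the 10 genes in orange and dotted lines at 1.5-fold; 172 rows lie beyond the axis. All 10 lie between the lines, from -0.14 for Lox to 0.35 for Plod2.

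The enzymes were then set beside their substrates, the fibrillar collagen chains. All 11 chain genes had ratios above 1 with each of the scalings tried, none past the 1.5-fold rule, and their median log2 ratio was 0.15. Col1a1 and Col1a2, the chains of type I collagen, were at 1.05 (1.048 to 1.052) and 1.05 (1.044 to 1.048). Relative to Col1a1, which removes the scaling, Lox was at 0.863 (0.856 to 0.871), going from 59.2 to 51.1 counts per 1000 of Col1a1. Plod2 was at 1.21 (1.174 to 1.248), from 3.75 to 4.54 per 1000. Plod3 was at 1.10 (1.08 to 1.13) and Loxl4 at 1.09 (1.04 to 1.13), and P4ha1 was at 0.934 (0.903 to 0.967). These intervals again hold counting error only.

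Of 23 other genes of collagen processing 19 had enough counts, and none of the 19 was past the rule. Their median log2 ratio was 0.03. The ratio was above 1 for 15 of the 19, and for 9 with total-count scaling, so no direction is given for the list. Serpinh1, the collagen chaperone HSP47, had the most counts and a ratio of 1.02 (1.016 to 1.032). P4hb, protein disulfide isomerase and the beta subunit of prolyl 4-hydroxylase, was at 1.15 (1.14 to 1.16). The lowest was Tmem38b, an endoplasmic reticulum potassium channel gene in which mutations cause brittle bone, at 0.601 (0.533 to 0.677). It was picked after its values were seen and was past the rule with total-count scaling, at 0.586, and with upper-quartile factors, at 0.590. Colgalt2, Tll1, Tll2 and Adamts3 were listed at 0 in both libraries.

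Among 12 genes for substrates, partners and copper supply of the lysyl oxidases none was past the rule, and the median log2 ratio was 0.04. Fn1, the fibronectin gene, was at 1.03 (1.026 to 1.034), and Fmod, a collagen-binding proteoglycan gene, at 1.13 (1.119 to 1.134). Eln, the elastin gene, picked after its values were seen, had the highest ratio of the list at 1.37 (1.26 to 1.49), from 926 to 1305 counts. Atp7a, the pump that loads secreted enzymes with copper, also picked after its values were seen, had the lowest at 0.834 (0.780 to 0.892).

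P4ha1, P4ha2, Plod2, Lox and Loxl2 are known targets of the hypoxia-inducible factors (HIF). Of 16 compared rows of other HIF target genes, 4 had more counts past the rule, none fewer and 12 were neither. Over all rows compared the shares were 5.39% with more and 3.54% with fewer. The median log2 ratio of the 16 was 0.13. The 4 were Ddit4, an inhibitor of mTOR signalling, at 8.51 (7.94 to 9.13), Vegfa, an angiogenic factor gene, at 5.17 (5.07 to 5.27), Pfkfb4, a regulator of glycolysis, at 3.62 (3.29 to 3.98), and the hexokinase gene Hk2 at 2.70 (2.61 to 2.79). The 5 collagen enzyme genes named above had ratios from 0.907 to 1.27 in the same libraries. Other HIF targets were in that range too, such as Pgk1 at 1.13 and Slc2a1 at 0.924, both picked after their values were seen. Some lay outside it without being past the rule. Among these were Pfkfb3, the lowest of the list at 0.721 (0.673 to 0.772), and Ndrg1 at 1.28, also picked after their values were seen.

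**Figure D5:**
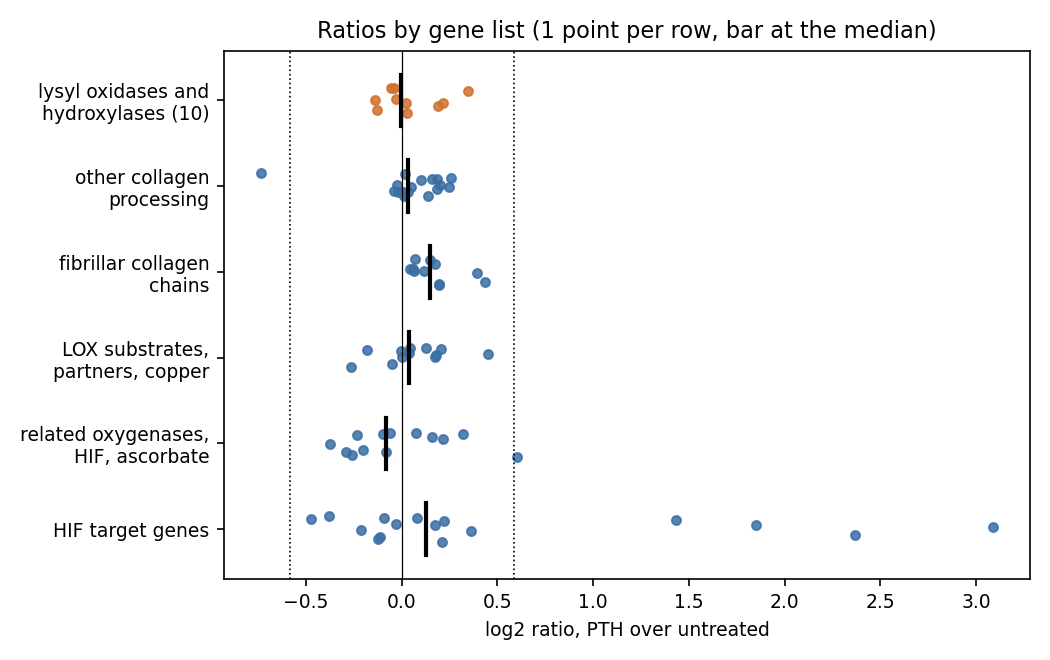
Log2 ratio, PTH over untreated, of each compared row by gene list, with a bar at the median and dotted lines at 1.5-fold. The 10 enzyme genes spread from -0.14 to 0.35, and 4 HIF target genes lie between 1.43 and 3.09.

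Promoter sequence was at hand for 5 of the 10 genes, Loxl4, P4ha1, P4ha2, Plod1 and Plod3, from RefSeq on GRCm38.p6, and the 250 bases before the start were searched on both strands. The P4ha2 window, chr11:54100674-54100923, lies outside exons but inside the GENCODE span of the gene, which begins at 54100095. It thus precedes a start within the gene and not the first annotated base. The full cyclic AMP response element TGACGTCA was in 0 of the 5 windows, against 1.55% of 32851 promoters, and its first letters TGACG in 2, Loxl4 and P4ha2, against 17.8%. Of the letters at the core of HIF-binding elements, ACGTG was in 3 windows, P4ha1, P4ha2 and Plod3, against 16.6%, and GCGTG in all 5, against 28.2%. TGACG can overlap ACGTG by its last letters, which it did in none of the 5. Annotated exons cover 208 of the 250 bases of the Plod3 window, and without exonic bases ACGTG was in 2 windows and GCGTG in 4, while TGACG stayed in 2. Below are the window of Loxl4, the member with TGACG and the higher ratio, and that of P4ha1, with ACGTG and GCGTG and a ratio near 1. Capitals mark these motifs on either strand.
Loxl4, chr19:42612814-42613056, minus strand: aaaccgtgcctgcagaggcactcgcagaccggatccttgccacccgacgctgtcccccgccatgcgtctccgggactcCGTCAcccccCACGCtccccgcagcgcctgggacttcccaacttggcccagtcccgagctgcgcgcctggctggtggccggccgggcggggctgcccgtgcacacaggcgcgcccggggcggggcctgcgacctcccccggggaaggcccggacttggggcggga
P4ha1, chr10:59323046-59323295, plus strand: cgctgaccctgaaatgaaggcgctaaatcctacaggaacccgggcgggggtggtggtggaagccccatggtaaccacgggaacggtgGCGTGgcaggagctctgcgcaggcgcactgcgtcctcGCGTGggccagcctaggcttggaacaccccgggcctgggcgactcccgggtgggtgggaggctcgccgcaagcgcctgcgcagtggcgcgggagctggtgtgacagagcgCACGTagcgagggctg
The Loxl4 window is shown without the 7 bases nearest the start, which an annotated exon covers. In Loxl4 the reverse of TGACG begins 172 bases before the start, and in P4ha1 the reverse of ACGTG begins 16 bases before it. A match describes letters and not a bound site. The shares over all promoters include exonic bases and were not matched for base composition, so no excess in the 5 windows is claimed. Of the HIF targets named above, Lox, Loxl2 and Plod2 had no window here.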

How the data were processed

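RNA of 2 libraries, untreated and PTH, was measured by sequencing. The authors deposited whole-number read counts per gene, not normalised, with 1 column per library. Per the submitters' processing notes, HISAT2 and mm10 were used; its version, the counting tool, the annotation and any strand setting were not given in the sources used here. Gene lengths, coordinates and overlaps came from GENCODE M21 (GRCm38), which holds 55227 of the 55487 identifiers.

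Counts were scaled by TMM effective library sizes (edgeR 4.0.16, R 4.3.3) over rows with a total of 20 or more. With 1 library per group the quasi-likelihood test of edgeR has no residual degrees of freedom, so no p-value was computed. The ratio has a 95% exact conditional (Clopper-Pearson) interval (Python 3.11.15, scipy 1.17.1). PCR copies are not independent molecules, and intervals cover counting error only. Log2 ratios add 0.5 count to each library. Ratios of ratios use a normal approximation on the log scale. In simulated data for this comparison over 16408 rows, 95.6% of intervals held the true fold. The simulated counts held counting error only, so this checks the interval formula and not variation between cultures.

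The members and gene lists were chosen with earlier results of these data known. Named are all 10 members, the genes of the cyclic AMP check and, from each other list, up to 4 genes past the rule with the interval bound farthest from 1, or, with fewer than 2 past it, the 2 with most counts. Others are marked as picked after their values were seen. No likeness of pattern can be measured over 2 libraries. Alternatives were other scalings (DESeq2 1.42.0 size factors among them), count filters, fold limits, widened intervals and the longest transcript as length.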

Additional observations from a re-analysis of the deposited data

How the results depend on the processing

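The counts of 0 among the 10 genes were 0 in each direction under all 9 alternatives. The 2-fold limit and the widened intervals could only remove genes, so their counts of 0 were fixed in advance. The other scalings and the count filters moved the member ratios little, for Plod2 between 1.239 and 1.274, far from 1.5-fold. Only the limit of log2 0.32 put these counts of 0 to a test. Widened intervals also leave each ratio as it was, so no direction could change there. Of 71 recomputed member ratios, which include those, 68 kept their direction and their side of the rule. The other 3 were near 1 and crossed it: Plod1 at 0.990 with total-count scaling and 0.997 with upper-quartile factors, and P4ha2 at 0.993 with total-count scaling. The median of all rows moved to -0.035 at most with another scaling. For all rows, those past the rule with more counts numbered 1386 with no filter on counts, 543 with a minimum total of 100, 474 with an assumed coefficient of variation of 0.2, 1495 at a limit of log2 0.32 and 517 at 2-fold, against 884. Those with fewer numbered 983, 307, 267, 1213 and 262 under the same alternatives, against 581. Of 14 comparisons between members of a family, 9 intervals excluded 1, and 0 did with a coefficient of variation of 0.1. Depth limits Loxl2 most. How much cultures vary is unknown here. No paired analysis was possible because each condition has 1 library.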

Other observations

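Of 13 genes for related oxygenases, HIF subunits and ascorbate transport, none was past the 1.5-fold rule, and the median log2 ratio was -0.08. Asph, an aspartyl hydroxylase gene, had the most counts and a ratio of 1.05 (1.03 to 1.08), with 14.7% of its exonic length opposite other exons. Hif1a, the oxygen-regulated HIF subunit gene, was at 0.871 (0.846 to 0.896). The remaining examples were chosen with their values known. Epas1, which encodes the other main HIF alpha subunit, had 281 and 440 counts and a ratio of 1.52 (1.31 to 1.77). The HIF hydroxylase genes Egln1, Egln2 and Hif1an were at 0.944, 0.850 and 0.837. Slc23a2, the ascorbate transporter gene that supplies the cofactor of the collagen hydroxylases, was at 1.248 (1.20 to 1.30), with 3999 and 5141 counts. The other ascorbate transporter gene, Slc23a1, had 13 and 15 counts.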
